A study of Mus musculus with 4 samples.

Results

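Alveolar type 1 cells are the thin, flat epithelial cells that cover most of the air-facing surface of the lung and form, with the capillary endothelium beneath them, the barrier across which gas is exchanged. They do not divide readily, and after injury they are replaced from alveolar type 2 cells, the surfactant-producing cells of the same epithelium. They are known by a set of membrane, channel and caveola proteins, together with some nuclear, signaling and secreted ones. From this set 10 genes were followed here by symbol: Ager, Hopx, Aqp5, Pdpn, Rtkn2, Clic5, Akap5, Emp2, Igfbp2 and Cav1. Each symbol matched 1 row, so that all 10 of 10 were found among the 23282 rows measured, and all 10 had a mean of 4 or more normalized reads, as 15164 rows did.

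Lung RNA of CDF1 mice, labelled as postnatal day 28 in every group, was profiled by 3' mRNA sequencing (QuantSeq), in which reads come from the end of a transcript next to its poly(A) tail. The 4 groups of 10 male mice crossed treadmill exercise (E) with tumor (T). The E(-)T(-) mice had neither and are called control here, and the E(+)T(-) mice, which ran without tumor, are called exercised. The E(-)T(+) mice carried tumor without running and are called tumor-bearing, and the E(+)T(+) mice, with both, exercised tumor-bearing. Where 4 values are given together, they stand in this order. Exercise was high-intensity treadmill running, and tumor-bearing mice had been given CT26 cells, a murine colorectal carcinoma line, by the tail vein. The mice were bought at about the labelled age and killed only after the exercise and tumor period, so the label does not give their age at sampling. Each group has 1 library, so no difference between groups could be tested against the spread between mice. For muscle the study used 1 representative mouse per group, and it calls its lung profiling similar without giving the number of mice behind a lung library.

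The libraries held between 9354544 and 13367951 reads assigned to rows. They were of unequal make-up, and hemoglobin took 14.3%, 14.2%, 1.43% and 31.4% of the reads. A further irregularity touched the exercised library. Of the rows without any read in the control library, 9 reached 500 normalized reads in the tumor-bearing library, and the exercised library had reads of all 9, from 0.642% to 2.18% of the tumor-bearing level. Taking the median of these shares, 1.47%, of each tumor-bearing level out of the exercised library moved the value of Akap5 there from 12.50 to 12.43 on the log2 scale. Values below are log2(normalized read count + 1) unless another scale is named, and an interval beside a difference is the exact 95% interval of the read ratio, which covers counting error only.

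Ager encodes the receptor for advanced glycation end-products, a cell surface protein that is most abundant in lung type 1 cells. The gene lies on chromosome 17 from 34597862 to 34600936 on the plus strand (mm10, GENCODE M21), and no other annotated gene overlaps it. Akap5, on chromosome 12 from 76324891 to 76334153 on the plus strand, encodes a scaffold that holds protein kinase A and other signaling enzymes at the plasma membrane. Igfbp2, on chromosome 1 from 72824503 to 72852474 on the plus strand, encodes a secreted binding protein for insulin-like growth factors. Hopx, on chromosome 5 from 77086988 to 77115121 on the minus strand, encodes a small homeodomain protein that does not bind DNA itself, and its exons overlap those of the antisense gene Hopxos. The start-site windows of these genes are shown because Ager is the defining marker, Akap5 went against the other members, Igfbp2 had the lowest value relative to control lung, and Hopx was the 1 member with a match to the NKX2-1 motif below. Each window runs 5′ to 3′ on the strand of the gene from 250 bases before to 50 bases after the annotated start (RefSeq, GRCm38.p6), and capitals mark motif matches.
Ager, chr17:34597600-34597899: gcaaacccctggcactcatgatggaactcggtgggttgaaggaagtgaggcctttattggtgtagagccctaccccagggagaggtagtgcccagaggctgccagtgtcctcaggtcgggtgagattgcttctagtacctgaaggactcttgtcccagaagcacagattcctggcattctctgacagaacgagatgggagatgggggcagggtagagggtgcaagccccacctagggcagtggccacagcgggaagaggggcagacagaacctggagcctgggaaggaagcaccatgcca
Akap5, chr12:76324641-76324940: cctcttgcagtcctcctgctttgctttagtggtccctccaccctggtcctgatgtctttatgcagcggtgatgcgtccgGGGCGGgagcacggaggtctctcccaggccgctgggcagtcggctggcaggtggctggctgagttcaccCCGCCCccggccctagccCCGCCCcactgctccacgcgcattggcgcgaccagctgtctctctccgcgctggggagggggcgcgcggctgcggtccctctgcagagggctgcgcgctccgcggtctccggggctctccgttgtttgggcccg
Igfbp2, chr1:72824230-72824529: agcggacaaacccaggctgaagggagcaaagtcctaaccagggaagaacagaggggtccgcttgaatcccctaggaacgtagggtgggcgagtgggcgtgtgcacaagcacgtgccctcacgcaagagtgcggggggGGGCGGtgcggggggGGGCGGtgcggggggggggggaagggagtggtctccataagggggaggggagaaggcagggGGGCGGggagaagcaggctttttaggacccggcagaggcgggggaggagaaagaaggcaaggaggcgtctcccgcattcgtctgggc
Hopx, second start, chr5:77095218-77095517: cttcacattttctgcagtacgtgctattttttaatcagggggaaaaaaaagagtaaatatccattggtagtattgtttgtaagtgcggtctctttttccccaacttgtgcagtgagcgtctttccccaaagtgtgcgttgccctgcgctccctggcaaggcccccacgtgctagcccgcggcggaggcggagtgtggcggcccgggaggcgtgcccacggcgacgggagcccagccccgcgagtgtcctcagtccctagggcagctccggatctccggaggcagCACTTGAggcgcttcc

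The windows were searched on both strands for GGAATG, a sequence bound by TEAD factors, CACTTGA, bound by NKX2-1, TATAAA (the TATA box), GGGCGG (the GC box) and TGANTCA (AP-1), and no matches overlapped. Windows were held for 9 of the 10 members, 12 in all. The GC box was found in 7 of the 12, against 35.7% of 32851 windows in the mouse genome, and is what is capitalised in Akap5 and Igfbp2. CACTTGA was found in 1 window, that of Hopx, against 3.06% of all windows, and GGAATG in 0 of the 12, against 14.7%. Cav1 had the 1 match to TATAAA (13.6% of all windows), and the second start of Igfbp2 the 1 match to TGANTCA (7.81%). Ager had no match to any of the 5. These are letter matches in short windows and say nothing about binding.

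The other members were annotated as follows (mm10, GENCODE M21). Clic5 is at chr17:44188584-44280172 and Aqp5 at chr15:99590782-99594829, both on the plus strand, with Emp2 at chr16:10281749-10313968 and Pdpn at chr4:143267431-143299564 on the minus strand. Rtkn2 is at chr10:67979570-68059740 and Cav1 at chr6:17306335-17341452, both on the plus strand.

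The exercise effect without tumor (exercised over control) asked what running changed in healthy lung. Of the members, 0 of 10 differed by 2-fold or more, where 9.98% of the 15164 rows did (5.28% higher and 4.70% lower). Each member had a mean of 480 or more normalized reads, and of the 9396 rows with a mean of 100 or more only 2.13% were past 2-fold, so the count does not set the members apart from rows of like level. Their median difference was 0.07, against 0.00 over all rows, with 6 members above and 4 below 0. Ager had the largest difference, from 14.63 to 15.30, or 0.67 (interval 0.65 to 0.69), which is 1.59-fold. Akap5 followed at 0.39 (0.34 to 0.45), from 5201 to 6318 reads, or at 0.32 with the 1.47% share taken out. Clic5, at -0.28 (-0.33 to -0.23), was the lowest. Hopx (0.06) and Rtkn2 (0.08) changed sign when libraries were scaled by their read totals alone, to -0.03 and -0.01. The remaining 5 members lay between -0.19 (Cav1) and 0.17 (Emp2), all smaller than the median absolute difference of all rows, 0.28.

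In the tumor effect without exercise (tumor-bearing over control), most alveolar type 1 genes were much lower in the tumor-bearing lung. Of the 10 members, 7 were at least 2-fold lower, where 25.7% of all rows were, and 1 was at least 2-fold higher, where 20.6% were (46.2% in either direction). The median difference was -1.86, against -0.03 over all rows. Differences ran from -4.72 for Igfbp2 to 2.55 for Akap5. In whole lung, fewer cells of a type, less RNA per cell and more RNA from other cells cannot be told apart.

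**Figure D1:**
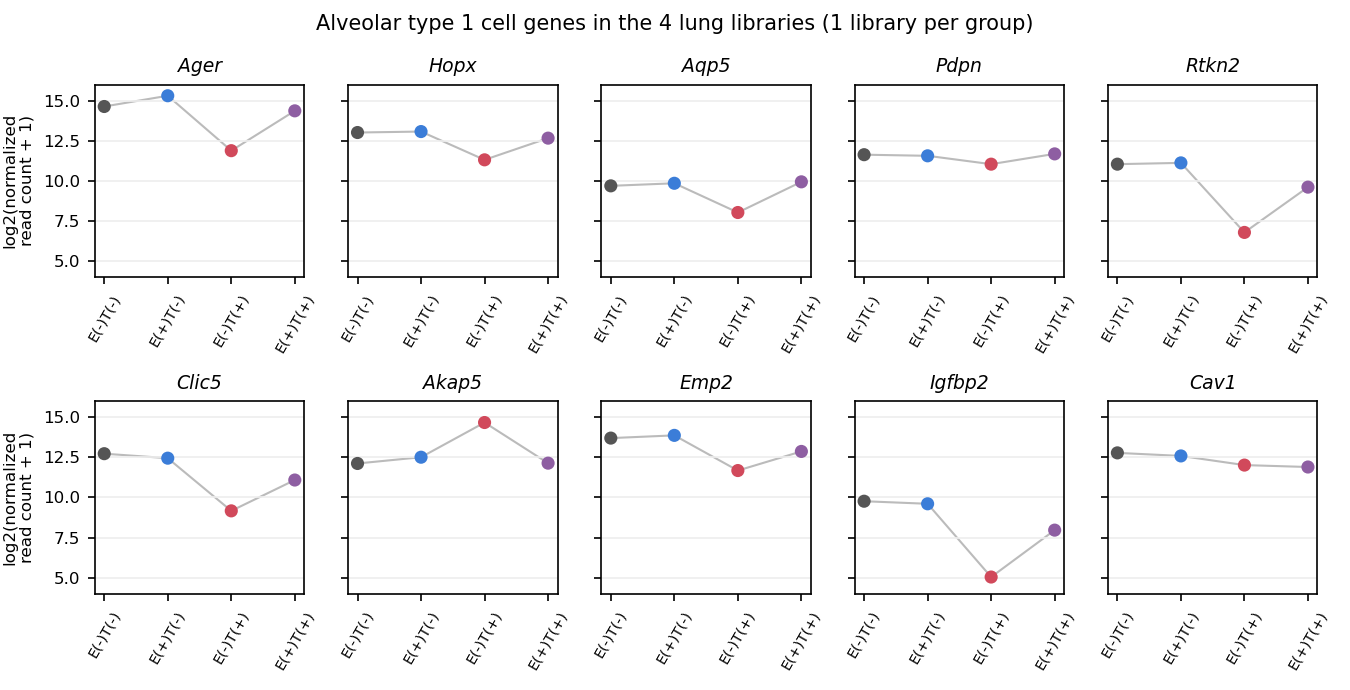
Level of each of the 10 alveolar type 1 genes, as log2(normalized read count + 1), in the 4 libraries, with 1 point per library and lines that only join the points. In each panel but those of Akap5 and Cav1 the E(-)T(+) point is the lowest, Cav1 is lowest in E(+)T(+) at 11.89, and Akap5 is highest in E(-)T(+) at 14.66.

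Among the membrane receptors and channels, Ager stood at 14.63 in control, 15.30 in exercised, 11.88 in tumor-bearing and 14.36 in exercised tumor-bearing lung. The tumor-bearing library was the low one, at 14.9% of the control level, a difference of -2.75 (-2.80 to -2.70), while the exercised tumor-bearing library held 82.9%. Reads of Ager numbered 29816, 43824, 3446 and 17973 in the same order of libraries.

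Clic5, an intracellular chloride channel protein that also anchors the cell cortex, was at 12.72, 12.44, 9.16 and 11.08. Both tumor libraries were low, with 8.47% of the control level in tumor-bearing and 32.0% in exercised tumor-bearing lung. The difference was -3.56 (-3.69 to -3.43) in the tumor effect without exercise, the third lowest of the members.

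Aqp5, the water channel of the apical membrane, was the member with the fewest reads in control lung. It had 972, 1001, 237 and 839 reads, or log2 values of 9.69, 9.85, 8.03 and 9.94. The tumor-bearing library alone was low, at -1.67 (-1.88 to -1.46) against control. Aqp5 is also made by airway and gland cells.

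Among the other membrane proteins, Emp2, a tetraspan membrane protein, was at 13.69, 13.86, 11.67 and 12.86, and its difference in the tumor effect without exercise was -2.02 (-2.07 to -1.96). Pdpn, podoplanin, a mucin-like glycoprotein also carried by lymphatic endothelium, fibroblasts and mesothelium, was at 11.63, 11.56, 11.04 and 11.68, and its range over the 4 libraries, 0.64, was the smallest of the 10. Cav1, the coat protein of caveolae, which endothelium and fibroblasts also carry, was at 12.77, 12.58, 12.01 and 11.89. Pdpn (-0.59) and Cav1 (-0.77) were the 2 members within 2-fold in the tumor effect without exercise, with intervals of -0.67 to -0.51 and -0.82 to -0.71.

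Among the nuclear, signaling and secreted members, Igfbp2 and Rtkn2 had the lowest relative levels in tumor-bearing lung. Igfbp2 had 1020, 843, 29 and 212 reads, or log2 values of 9.76, 9.60, 5.04 and 7.96. Tumor-bearing lung held 3.68% of the control level, a difference of -4.72 with the widest counting interval of the members, -5.36 to -4.24, and 116 of the 15164 rows, itself included, were as low or lower. Rtkn2 was at 11.04, 11.12, 6.79 and 9.61 and had 2475, 2413, 100 and 665 reads. It stood at 5.21% of the control level in tumor-bearing lung, at -4.25 (-4.57 to -3.97). Rtkn2 overlaps the antisense gene Gm16212, and reads of the 2 cannot be separated where the use of strand in counting is not stated.

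Hopx was at 13.01, 13.07, 11.31 and 12.66. The tumor-bearing library was low again, at -1.70 (-1.76 to -1.63), a smaller difference than that of Rtkn2. The reads of Hopx may include those of the antisense Hopxos, and Hopx is also expressed in heart muscle, whose 7 listed genes had summed normalized counts of 1627, 1699, 533 and 1263, none at 0 reads. The part of heart muscle in the values of Hopx was not tested.

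Akap5 was the exception. It was at 12.11, 12.50, 14.66 and 12.13, with 5201, 6318, 23576 and 3830 reads. The tumor-bearing library stood apart from the others, which lay within 0.39 of each other. The tumor effect without exercise was 2.55 (2.50 to 2.59), or 5.84-fold, and 879 of the 15164 rows, itself included, were as high or higher. Which cells gave the Akap5 reads of the tumor-bearing library, CT26 cells included, was not tested. Taken as a share of all reads, the 10 members were at 0.650% in control lung (95% Wilson interval 0.646 to 0.654) and at 0.416% in tumor-bearing lung (0.412 to 0.420). Without Akap5 the other members held 0.610% (0.606 to 0.614) and 0.164% (0.161 to 0.166), so that Akap5 gave most of the reads of the set in tumor-bearing lung.

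**Figure D2:**
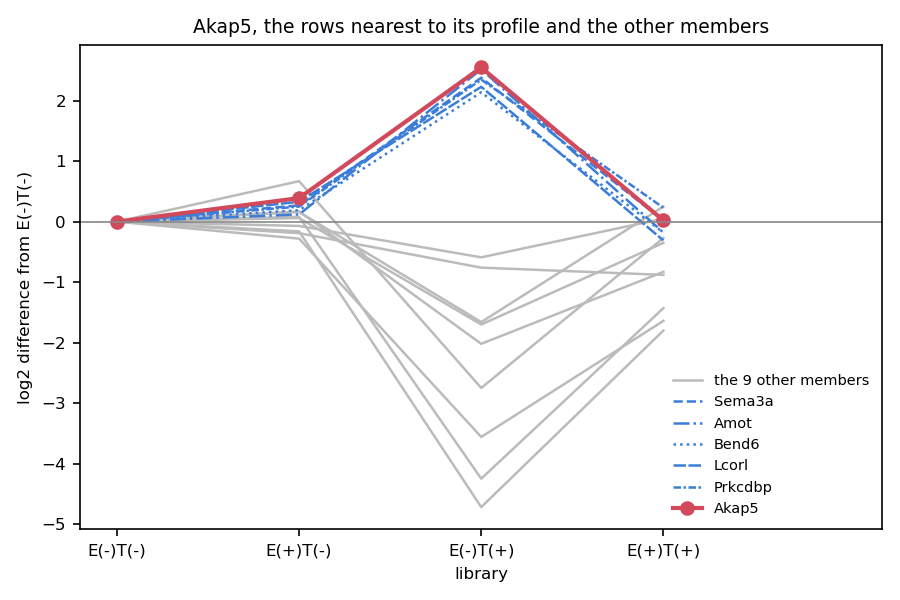
Log2 difference of each library from E(-)T(-) for Akap5 (red), the 5 rows nearest to its profile (blue) and the 9 other members (grey). In E(-)T(+), Akap5 lies at 2.55 and the other members between -4.72 and -0.59.

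Because Akap5 went the other way, the rows with the most similar profile over the 4 libraries were looked up after its values were seen. Among the 11216 rows with a mean of 50 or more normalized reads, the nearest by Euclidean distance of the centred log2 values were Sema3a (0.150), Amot (0.226), Bend6 (0.286), Lcorl (0.299) and Prkcdbp (0.315). Sema3a, a secreted guidance protein listed here as a further alveolar type 1 gene, was at 9.21, 9.48, 11.59 and 9.23. Prkcdbp, a coat protein of caveolae and so a partner of Cav1, was at 9.76, 10.01, 12.11 and 9.99. With 4 points a profile is a coarse description, and nothing is said of shared control.

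**Figure D3:**
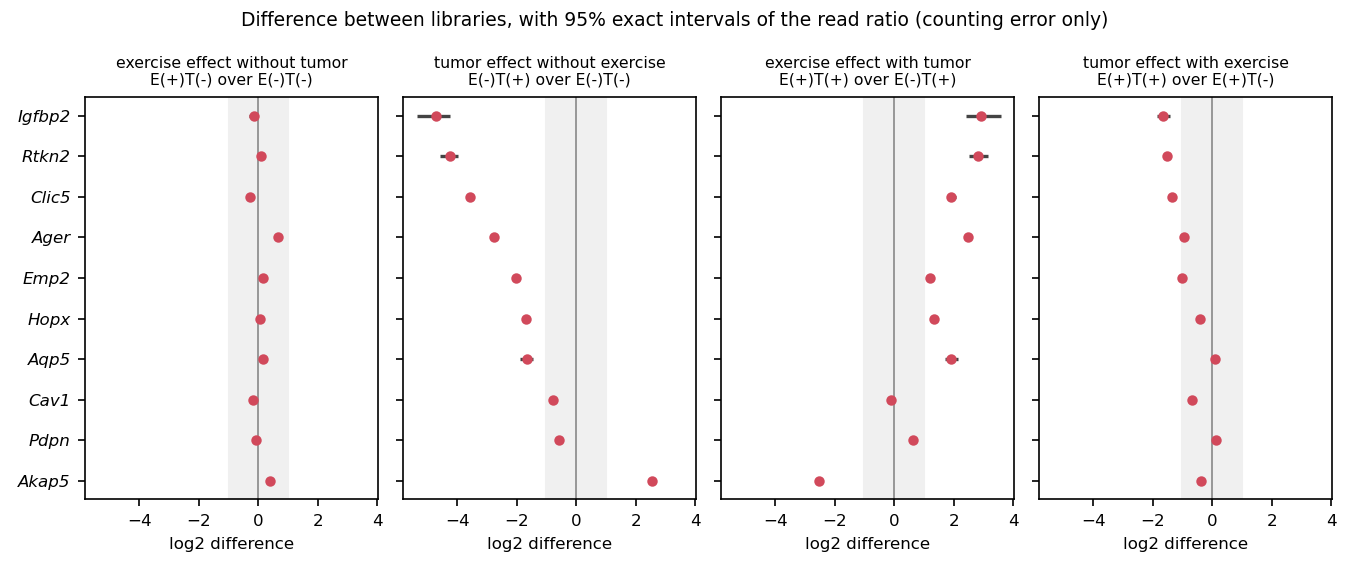
Log2 difference of each member in 4 comparisons (points) with the exact 95% interval of the read ratio (bars, hidden by the point where short), and the range within 2-fold shaded. All 10 members lie within 2-fold in the exercise effect without tumor, and 7 lie at least 2-fold below 0 in the tumor effect without exercise.

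The exercise effect with tumor (exercised tumor-bearing over tumor-bearing) asked what running changed in cancer-bearing lung. Of the 10 members, 7 were at least 2-fold higher after exercise, where 24.3% of all rows were, and 1, Akap5, was at least 2-fold lower, where 17.7% were (42.0% in either direction). The median was 1.63, against 0.01 over all rows. The comparison shares the tumor-bearing library with the tumor effect without exercise, so a gene that is low in that library is placed low in the one and high in the other by the same measurement. Igfbp2 differed by 2.92 (2.40 to 3.58), Rtkn2 by 2.81 (2.52 to 3.14) and Ager by 2.48 (2.42 to 2.53). Aqp5 (1.91), Clic5 (1.92), Hopx (1.35) and Emp2 (1.19) were also past 2-fold. Pdpn was at 0.64 (0.56 to 0.72), or at 0.03 under read totals alone, Cav1 at -0.11 (-0.18 to -0.05) and Akap5 at -2.53 (-2.58 to -2.48). Scaling by read totals alone moved the median of all rows to -0.59 and that of the members to 1.03. Hopx (0.74) and Emp2 (0.58) were then inside 2-fold. This left 5 members at least 2-fold higher and 1 lower, where 16.4% and 35.4% of all rows were. Relative to the median of all rows the members stood at 1.62 under that scaling.

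The tumor effect with exercise (exercised tumor-bearing over exercised) uses no library of the tumor effect without exercise. Here 4 of the 10 members were at least 2-fold lower, where 13.0% of all rows were, and 0 were higher, where 14.9% were (27.9% in either direction). The median was -0.81. Igfbp2 was at -1.64 (-1.87 to -1.42), Rtkn2 at -1.51 (-1.64 to -1.39) and Clic5 at -1.36 (-1.44 to -1.29), the same 3 genes that were lowest in mice without exercise. Emp2 stood at the 2-fold limit itself (interval -1.04 to -0.96), and Ager just inside it, at -0.94 (-0.96 to -0.91). Akap5 was at -0.37 (-0.43 to -0.32), with no excess in this tumor library. Aqp5 (0.09) and Pdpn (0.12) turned to -0.32 and -0.29 under read totals alone, a scaling that moved the median of all rows to -0.41 here. Ager (-1.35) and Cav1 (-1.10) were then past 2-fold, so that 6 members were lower in place of 4, where 24.2% of all rows were lower in place of 13.0%, against 5 with hemoglobin left out of the totals (15.1% of all rows) and 3 with median-of-ratios size factors (13.0%).

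Set against control lung, exercised tumor-bearing lung had some members near the control level and some well below it. Rtkn2 held 37.0% of its control level, Clic5 32.0% and Igfbp2 28.6%, and these 3 of 10 were the members past 2-fold (29.2% of all rows in either direction, 14.8% higher and 14.4% lower). Emp2 held 56.3% and Cav1 54.4%, while Hopx held 78.8% and Ager 82.9%. Pdpn was at 104% and Akap5 at 101%, with intervals of the log2 difference that included 0 (-0.02 to 0.12 and -0.04 to 0.08), and Aqp5 was at 119%. Under read totals alone, which moved the median of all rows to -0.52, Aqp5 (-0.25), Pdpn (-0.45) and Akap5 (-0.48) were below control, and Emp2 (-1.33) and Cav1 (-1.38) were past 2-fold. Without the hemoglobin rows in the totals, Pdpn was at -0.12 and Akap5 at -0.16. The median difference was -0.59, or -0.34 when Cav1 was left out and -0.83 when Akap5 was. Under read totals alone it was -1.08.

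Further genes known from alveolar type 1 cells moved like most of the members. Of 16 such genes, 15 were at least 2-fold lower in tumor-bearing than in control lung and 1, Sema3a, was higher (2.38), where 25.7% and 20.6% of all rows were, with a median of -2.24. Ndnf, a secreted neuron-derived factor, was the lowest at -3.90, from 768 to 39 reads. Vegfa, the endothelial growth factor that type 1 cells provide to the capillary bed, was at 11.83, 11.76, 9.40 and 11.09. In the exercise effect with tumor 14 of the 16 were at least 2-fold higher and Sema3a lower (-2.36), where 24.3% and 17.7% of all rows were, with Col4a4, a basement membrane collagen chain, the highest at 3.17. Under read totals alone 10 of the 16 were at least 2-fold higher, where 16.4% of all rows were. In the exercise effect without tumor 0 of the 16 were past 2-fold, where 9.98% of all rows were and 2.13% of those with a mean of 100 or more normalized reads. The list was written with earlier results on alveolar epithelium in these data known, and it is no independent evidence of direction.

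Of the transcription factors that set alveolar epithelial identity, 5 of 10 were at least 2-fold lower in tumor-bearing than in control lung and 1 was higher, where 25.7% and 20.6% of all rows were, and the median was -1.03. Foxa2 was the lowest at -3.14 and Klf5 the highest at 1.27. Nkx2-1, the lung epithelial homeodomain factor, was at 7.92, 7.55, 5.38 and 5.72, so that both tumor libraries were low, on 37 and 44 reads. Yap1 and Wwtr1, the coactivators of the Hippo pathway, were at -0.77 and -0.57 in the tumor effect without exercise. Their binding partner Tead1 was at -0.03 there and at -1.15 in the exercise effect with tumor. In that comparison 3 of the 10 were at least 2-fold higher and 1 lower, where 24.3% and 17.7% of all rows were. The 3 were Foxa2 and Gata6, both at 1.31, and Cebpa at 1.10. Under read totals alone 0 were higher and 2 lower, where 16.4% and 35.4% of all rows were. The median of the list there, 0.50, became -0.10 under that scaling. Against control, the median was -0.97 in exercised tumor-bearing lung beside -1.03 in tumor-bearing lung, whereas the 10 type 1 genes were at -0.59 beside -1.86. Under read totals alone the regulators were at -1.46 beside -0.92 and the type 1 genes at -1.08 beside -1.75, and whether these shifts differ was not tested.

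Partners of Cav1 in caveolae gave counts near those of all rows. Of the 7 with a row, 2 were at least 2-fold lower and 1 higher in tumor-bearing than in control lung, where 25.7% and 20.6% of all rows were, and their median was -0.47. Cav2, which forms complexes with Cav1, was the lowest at -1.53, and Prkcdbp the highest at 2.35. Ptrf, the main cavin, was at 0.07 and Sdpr at -0.47. In the exercise effect with tumor the median, 0.16, turned to -0.45 under read totals alone. Cav1 itself overlaps Gm15581 outside its exons.

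Other lung cell types were set beside the members. All 12 alveolar type 2 genes and all 14 genes of blood endothelium were at least 2-fold lower in tumor-bearing than in control lung, where 25.7% of all rows were, with medians of -2.64 and -3.42 against -1.86 for the 10 type 1 genes and -2.02 for these without Akap5. The fibroblast median was -2.54, with Col1a2 at 2.77 and Tcf21 at -4.76. In the exercise effect with tumor the medians were 2.59 for alveolar type 2, 2.87 for endothelium and 1.61 for fibroblasts. In exercised tumor-bearing lung the alveolar type 2 list stood at -0.31 and endothelium at -0.59 against control, beside -0.59 for the members. Under read totals alone these became -0.79, -1.09 and -1.08, with 6 of 12 alveolar type 2 genes at least 2-fold lower in place of 1 and 7 of 14 endothelial genes in place of 4. That scaling also raised the share of all rows at least 2-fold lower from 14.4% to 28.6%. No test separates these medians, and lists differ in how many of their genes other cells express.

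**Figure D4:**
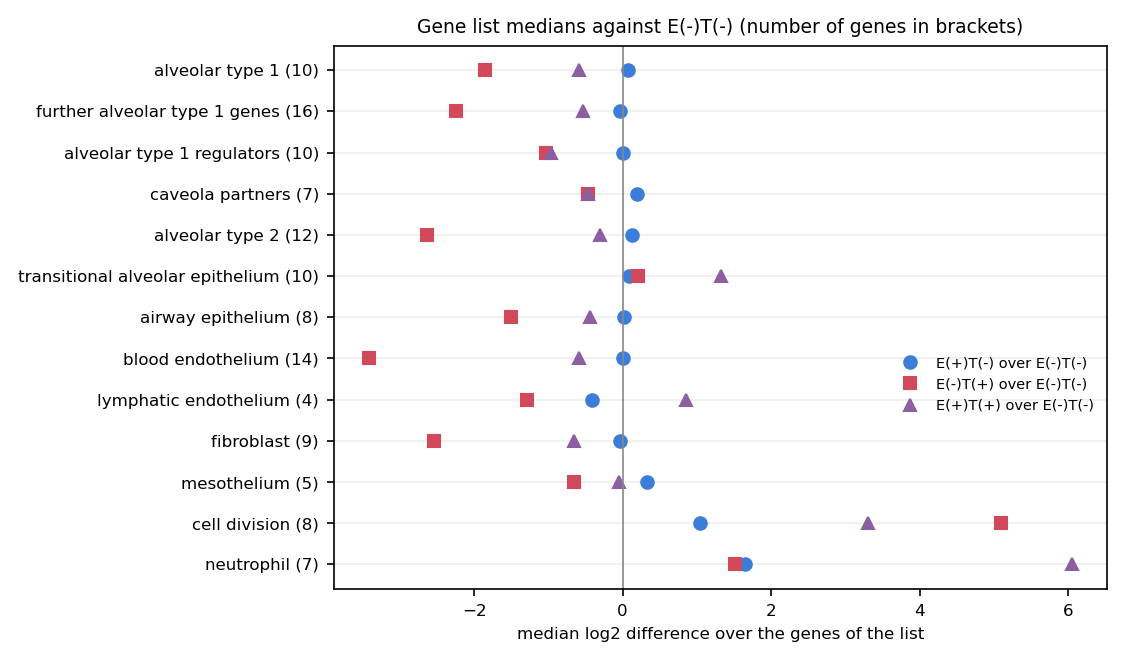
Median log2 difference from the control library of each gene list in the exercised (circles), tumor-bearing (squares) and exercised tumor-bearing (triangles) library, with the shared control making the 3 points of a list dependent on each other. The alveolar type 1 list lies at 0.07, -1.86 and -0.59, and the cell division list at 1.04 (0.70 with the 1.47% share taken out of the exercised library), 5.09 and 3.31.

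Markers of other cells also differed between the libraries, not all in the direction of the members. Summed normalized counts of the 14 endothelial genes, a cell type that also carries Cav1, were 61175, 60954, 6178 and 44660, none at 0 reads. Those of 8 cell division genes were 336, 688, 10091 and 3375, with 8 of 8 at least 2-fold higher in both tumor effects (20.6% of all rows without and 14.9% with exercise), or 7 of 8 in the tumor effect with exercise under a pseudocount of 4 or either scaling by read totals, and Bub1 at 0 reads in control lung. For 7 neutrophil genes they were 3792, 12020, 9577 and 206584, with 7 of 7 at least 2-fold higher in the exercised tumor-bearing library than in any other (14.8% to 24.3% of all rows, by comparison), or 6 of 7 against the tumor-bearing library under read totals alone. Lymphatic endothelium and mesothelium, which also carry Pdpn, had sums of 4326, 6049, 3169 and 12358 over 4 genes and of 889, 938, 3147 and 1124 over 5 genes, none at 0. Lyve1 made up most of the lymphatic sum and was at -0.34 in the tumor effect without exercise, where the median of the 4 genes was -1.29 and Mmrn1 was at -2.34. Of the 5 mesothelial genes, Msln was at least 2-fold higher in tumor-bearing than in control lung (2.48), Wt1 was just inside the limit at 0.97 and past it with read totals or median-of-ratios size factors, and 2 were at least 2-fold lower, among them Lrrn4 (-2.23). All rows stood at 20.6% higher and 25.7% lower, and the mesothelial genes had a median of -0.66. For 7 T cell genes, a lineage in which Rtkn2 is also expressed, the sums were 1079, 885, 126 and 738, with Cd3g at 0 reads in tumor-bearing lung. The part of these cells in the members' differences was not tested.

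Rows outside these lists can share the profile of the members. The median centred profile of the 10 was 0.54, 0.70, -1.35 and -0.08. The nearest of the same 11216 rows were Klf2 (distance 0.109), Arhgef12 (0.113), Wdyhv1 (0.116), Dhrs3 (0.122) and Grk5 (0.130). Klf2 encodes a transcription factor best known from endothelium under flow. Of the members, Emp2 was the closest to this median at 0.207 and Hopx next at 0.314, with 24 and 94 rows nearer, while Igfbp2 (2.20) and Akap5 (3.62) were farthest.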

How the data were processed

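The authors prepared QuantSeq 3' mRNA libraries from 500 ng of lung RNA, and per the submitters' notes and the study's methods aligned reads with Bowtie2 (mm10), counted them with bedtools coverage and normalized them by the quantile method of their R package. Versions, annotation and the use of strand are not given in the sources used here. The deposited values are log2(normalized read count + 1) at 3 decimals. Integer read numbers were recovered by inverting a negative binomial quantile adjustment (fitted dispersion 0.372). They returned 100% of the 93128 deposited log2 values to within 0.001 (largest error 0.00052) and were used for read counts, shares and intervals. Counts were resolved to 1 read for 94.6% of values and to 0.0347% otherwise. The floor of 3 reads was 0.224 to 0.321 CPM.

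Differences are of deposited log2 values (pseudocount 1), and folds understate the change of low genes. Called means 2-fold or more, among rows with a mean of 4 or more normalized reads. With 1 library per group no test was made and no p-value is given. Exact (Clopper-Pearson) and Wilson intervals cover counting error of reads alone and not the spread between mice. PCR copies are not independent molecules, so these intervals can be too narrow even for counting error. All 10 members were named. Of each further list, genes were named by the highest and lowest difference in 2 comparisons among those with a mean of 50 or more normalized reads. Others (Vegfa, Nkx2-1, Yap1, Wwtr1, Gata6, Cebpa, Ptrf, Sdpr, Wt1, Cd3g, Krt5) were chosen after their values were seen. Members and lists were chosen with earlier results of these data known. Alternatives were a pseudocount of 4, scaling by read totals with and without hemoglobin or by median-of-ratios size factors, other filters, and leaving out Cav1 or Akap5. Recovery was tested on simulated data. Python 3.11.15, numpy 2.4.6 and scipy 1.17.1 were used.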

Additional observations from a re-analysis of the deposited data

Results flagged for a closer look

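The exercise effect had opposite signs without and with tumor in 4 members on the deposited scale, which is why they are given here. The share of all rows with opposite signs was not counted, so the number does not set the members apart. These differences between the exercise effects were not tested, since each group has 1 library, and each effect without tumor was within 2-fold. Igfbp2 was at -0.16 without and 2.92 with tumor, a difference of 3.08. Clic5 was at -0.28 and 1.92, a difference of 2.19. Pdpn was at -0.07, with an interval that ended at -0.00, and at 0.64, a difference of 0.71. With libraries scaled by read totals alone Pdpn was at -0.16 and 0.03. Hopx (-0.03 and 0.74) and Rtkn2 (-0.01 and 2.21) then also had opposite signs, which makes 6 members. That scaling moved the median of all rows to -0.08 without and -0.59 with tumor, and opposite signs over all rows were not counted under it either. With hemoglobin left out of the totals, Hopx (-0.03 and 1.27) and Rtkn2 (-0.01 and 2.73) had opposite signs too. Akap5 was at 0.39 and -2.53, a difference of -2.92, and was the 1 member of the 4 with the higher value after exercise without tumor and the lower value after exercise with it.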

How the results depend on the processing

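Under each alternative run, the median of the members was below 0 in both tumor effects and in exercised tumor-bearing over control lung, and above 0 in the exercise effect with tumor. Scaling by read totals alone gave medians of -0.02 in the exercise effect without tumor, -1.75 in the tumor effect without exercise, 1.03 in the exercise effect with tumor, -1.22 in the tumor effect with exercise and -1.08 for exercised tumor-bearing over control lung. Totals without hemoglobin gave -0.02 in the exercise effect without tumor, -0.90 in the tumor effect with exercise and -0.76 in exercised tumor-bearing over control lung. With either scaling 5 members, not 3, were past 2-fold in exercised tumor-bearing over control lung, all lower, while the share of all rows at least 2-fold lower rose from 14.4% to 28.6% and 18.4%. Leaving out Cav1 gave medians of -2.02, 1.91, -0.94 and -0.34 in the tumor effect without exercise, the exercise effect with tumor, the tumor effect with exercise and exercised tumor-bearing over control lung, and leaving out Akap5, chosen after seeing the data, gave -2.02, 1.91, -0.94 and -0.83. Taking the 1.47% share out of the exercised library, also chosen after seeing the data, gave 0.08 and -0.82 in the comparisons with that library. It left 1 of 8 cell division genes at least 2-fold higher in the exercise effect without tumor in place of 4. Before that step 5.28% of all rows were at least 2-fold higher there, and the share after it was not counted. With a filter at a mean normalized count of 100, 2.13% of all rows were past 2-fold in the exercise effect without tumor and 17.9% in the tumor effect with exercise. A pseudocount of 4 kept all 50 member differences within their counting intervals, and median-of-ratios size factors 48, while read totals moved 44 of the 50 outside them and totals without hemoglobin 36. The filters removed no member, since none was under a mean normalized count of 50. No paired analysis was possible because each group has 1 library, and for the same reason no replicate could be left out. Depth limits Igfbp2 most, on 29 reads in tumor-bearing lung.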

Other observations

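Genes of the transitional state that alveolar type 2 cells pass through on the way to type 1 cells, which also include genes of other epithelia, of tumor cells and of macrophages, gave mixed values. Of 10 such genes, 4 were at least 2-fold higher and 3 lower in tumor-bearing than in control lung, where 20.6% and 25.7% of all rows were, with a median of 0.21. In exercised tumor-bearing over control lung, 8 were at least 2-fold higher and 1 lower, where 14.8% and 14.4% of all rows were, with a median of 1.32, or 0.82 and 4 higher under read totals alone, where 9.17% of all rows were higher. Krt8, a keratin of simple epithelia, was at 9.72, 9.93, 8.58 and 11.12 in control, exercised, tumor-bearing and exercised tumor-bearing lung. Lgals3, galectin 3, which macrophages also make in quantity, was at 11.01, 10.97, 13.62 and 12.78. Itgb6, an epithelial integrin chain, was the lowest of the list in the tumor effect without exercise at -1.74. These libraries have no replicates, and the cells behind the values were not tested.

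Airway epithelium, with 8 genes listed, was at a median of -1.50 in the tumor effect without exercise. Of its genes 5 were at least 2-fold lower and 2 higher, where 25.7% and 20.6% of all rows were. The 2 higher genes were Scgb3a1 and Krt5. Krt5 had 0, 0, 18 and 1 reads and a mean normalized count of 5.18. It passed the filter of 4 through the tumor-bearing library, so its count as higher carries no weight. Tppp3, of ciliated cells, was at -4.17, and Scgb3a1, a secretoglobin, at 2.51.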
